A study of Mus musculus with 2 samples.

Results

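Smooth muscle cells of the mouse choroid were taken as cells with at least 5 UMIs (unique molecular identifiers, counted transcripts) of Myh11 and Cnn1 together, at least 3 of Acta2, at most 2 of Ptprc, Cdh5 and Sox10 together and at most 5 of Lum and Dcn together. The first 3 genes code for smooth muscle myosin, calponin and smooth muscle actin, and the others mark leukocytes, endothelium, Schwann cells and fibroblasts. This gate held 908 of 21898 cells, 315 in library WT1 and 593 in library WT2, or 3.71% (exact 95% binomial interval 3.32% to 4.13%) and 4.43% (4.08% to 4.79%) of the cells. The gate was chosen with results of these data known, so the gate genes, and the other smooth muscle genes that were used as markers, are given below as levels and were not tested.

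Vascular smooth muscle forms the contractile wall of arteries and larger veins, and pericytes sit on capillaries. Contraction follows when calcium from channels in the plasma membrane and from the sarcoplasmic reticulum activates myosin light chain kinase, and relaxation follows when cGMP, cAMP or potassium channels oppose it. In the choroid, the vascular layer behind the retina, the tone of this wall is controlled largely by autonomic nerves, and blood pressure, peptides and nitric oxide act on it as well.

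Choroid and its adjoining retinal pigment epithelium (RPE) were taken from 8-week-old ICR mice, a wild-type outbred albino stock, for 2 droplet libraries. Each was a pool of 1 male and 1 female mouse, without treatment or mutant alleles. The tissue was digested with collagenase and trypsin before 3′ sequencing, and such digestion can itself induce stress genes. Comparisons were made between cell classes, with UMIs summed per library and class (n = 2 libraries), and values are given below for WT1 and WT2 in that order. Levels are given as CPM, the UMIs of a gene in 1000000 UMIs of its class. They are not divided by transcript length, so an order of genes by level, used only to pick contractile genes to name, is no order of transcript numbers. The libraries held 91741168 and 149570817 UMIs, and the smooth muscle sums 2597326 and 5130594. The median smooth muscle cell had 7561 and 7543 UMIs, against 5210.5 and 5252 in pericytes, and 4.32% and 5.15% mitochondrial UMIs, against 2.77% and 3.42%. Of the cell barcodes, 31 occurred in both libraries, 6 smooth muscle cells carried such a barcode, and no barcode was a smooth muscle cell in both.

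The label was checked against the 5 markers Myh11, Cnn1, Acta2, Tagln and Des. Myh11 stood at 2953 and 3592 CPM in smooth muscle cells and at 24.3 and 25.6 in pericytes. Acta2 stood at 8312 and 5934 against 234 and 183, and Tagln (transgelin, an actin-binding protein) at 6931 and 4549 against 333 and 157. These 3 genes were at least 20 times as high in smooth muscle cells as in pericytes in both libraries. Cnn1 stood at 164 and 192 CPM against 0 and 0.337. Des (desmin, the muscle intermediate filament) did not separate the classes, with 429 and 337 CPM in smooth muscle cells and 292 and 310.0 in pericytes. It had a UMI in 68.6% and 58.9% of smooth muscle cells and in 64.5% and 66.3% of pericytes.

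Single cells differed widely within the gate. The sum of Myh11 and Cnn1 ran from 5 to 171 UMIs with a median of 19 in WT1, and from 5 to 236 with a median of 24 in WT2. Acta2 ran from 3 to 358 UMIs (median 55) and from 3 to 417 (median 38). Cells just inside the gate, with 5 or 6 UMIs of Myh11 and Cnn1, numbered 29 and 42 and had a median of 16 and 9 Acta2 UMIs and of 49 and 65.5 Rgs5 UMIs. Cells just outside, with 3 or 4, numbered 53 and 62 and had medians of 9 and 8.5 for Acta2 and of 46 and 73 for Rgs5. The medians on either side of this limit lay closer to each other than to the median of the whole gate for Acta2. A further 67 and 177 cells had 5 or more UMIs of Myh11 and Cnn1 but were left out, 45 and 137 of them over the limit for Lum and Dcn.

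**Figure D1:**
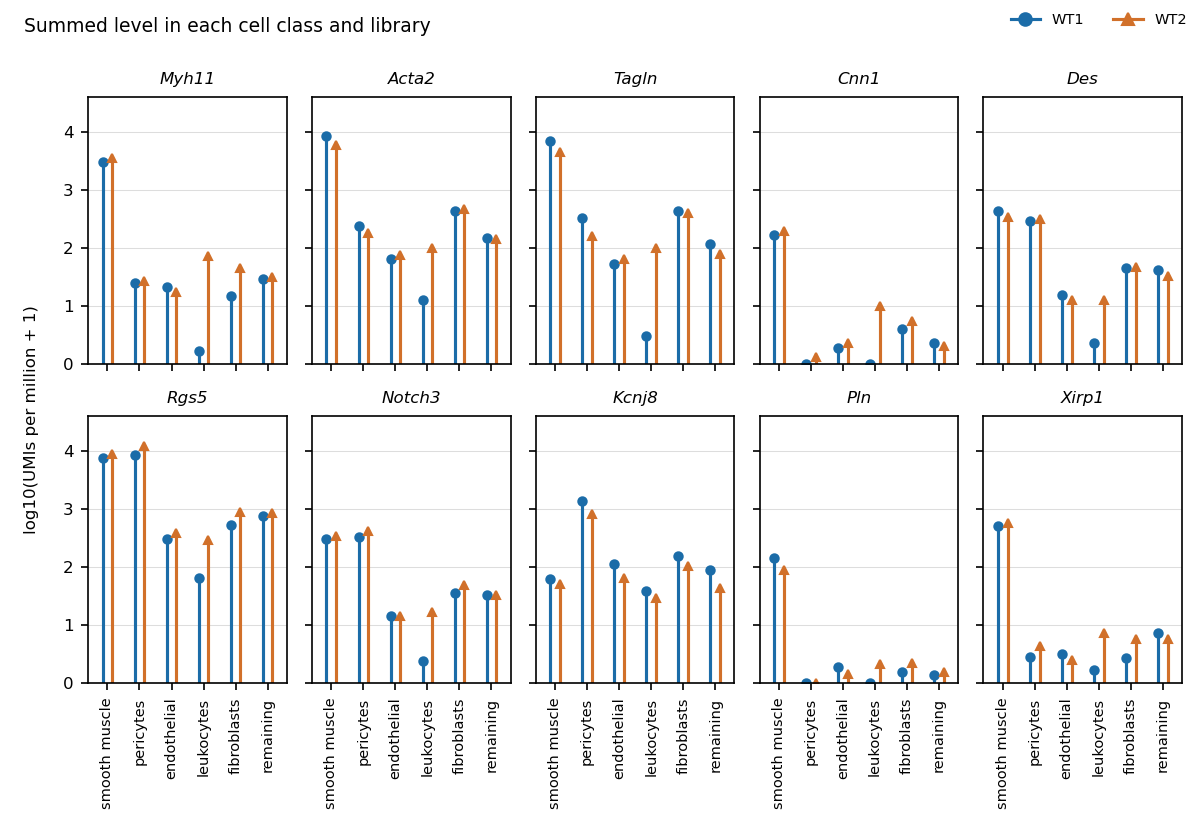
Summed level of 10 genes in 6 cell classes, as log10 of CPM plus 1, with WT1 as circles and WT2 as triangles. Myh11, Acta2, Tagln, Cnn1, Pln and Xirp1 stand highest in smooth muscle cells in both libraries, Des and Rgs5 stand at like levels in smooth muscle cells and pericytes, and Kcnj8, a pericyte gate gene, is highest in pericytes.

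The cells of the gate were not of 1 kind. Rgs5 (a regulator of G protein signalling) and Notch3 (the Notch receptor of vessel walls) mark mural cells, the common name for pericytes and vascular smooth muscle. A set with at least 3 UMIs of Rgs5 and Notch3, at most 20 of the pigment cell genes Dct, Mlana, Pmel and Tyrp1 and at most 4 of Rpe65 and Rlbp1 held 254 and 479 cells, or 80.6% and 80.8% of the gate. These limits were chosen after the values were seen, so the sets are described without a test. In this set Rgs5 stood at 9844 and 11949 CPM and Notch3 at 397 and 457, Gja4 (a vascular connexin) at 1388 and 859 and Des at 454 and 397.

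A further group of 23 and 55 cells (7.30% and 9.27%) had fewer than 3 UMIs of Rgs5 and Notch3 and either more than 20 of those pigment cell genes or more than 4 of Rpe65 and Rlbp1, and is called the pigment-gene set. It had Myh11 at 2769 and 2141 CPM and Acta2 at 7711 and 3920.4, together with the melanosome gene Pmel at 8027 and 9378, Mlana at 2651 and 2285 and Dct, a melanin enzyme, at 7896 and 7378. Rgs5 stood there at 3.36 and 0 CPM and Notch3 at 0 and 2.43. The muscarinic receptor gene Chrm2 had 63.9 and 54.7 CPM in this group and 0 and 0 in the Rgs5 and Notch3 set. Hhip (a hedgehog-binding protein) had 148 and 59.5 against 0 and 0, and Pcp4 (a calmodulin-binding peptide) had 1079.9 and 1250.5 against 0 and 5.61. Smtn (smoothelin) was also high here, at 488 and 366 against 64.1 and 94.7 CPM. Scrublet called 0 and 2 of these cells doublets, and their median depth was 12139 and 12378 UMIs against 7146 and 7063 in the Rgs5 and Notch3 set. Whether doublets contribute was otherwise not tested.

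The other group without Rgs5 and Notch3, of 33 and 37 cells (10.5% and 6.24%), had no such excess of pigment genes and is called the Chodl set after its first leading gene. It carried the most contractile RNA per UMI, with Acta2 at 13878 and 11999 CPM, Tagln at 15647 and 12403 and Cnn1 at 575 and 890.0, where the Rgs5 and Notch3 set had 127 and 175 of Cnn1. Actg2 (the enteric smooth muscle actin) stood at 454 and 827 against 86.5 and 159.8, and Itga8 (an integrin chain) at 199.7 and 288 against 20.8 and 44.3. Its leading genes were Chodl (a C-type lectin) at 182 and 167 CPM against 0.521 and 4.77, Pcdh7 (a protocadherin) at 324 and 827 against 18.2 and 51.9, Nog (the BMP antagonist noggin) at 602 and 432 against 19.3 and 27.5 and Ccn2 (a matricellular growth factor) at 2196 and 2330.2 against 112 and 202. The remaining 5 and 22 cells of the gate had Rgs5 or Notch3 together with pigment or RPE genes, and Scrublet called 3 and 12 of them doublets. Since the sets were cut on Rgs5 and Notch3, those 2 genes say nothing more of the label "vascular". Of mural genes that did not define the sets, Gja4 stood at 0 and 1.22 CPM in the pigment-gene set and 806 and 432 in the Chodl set, and Des at 0 and 3.65 and 823 and 688. Both genes were thus at or near 0 in the pigment-gene set. The Chodl set held both, with more Des and less Gja4 than the Rgs5 and Notch3 set in each library. Other mural genes were lower there than in that set, Ednra with 41.3 and 74.9 CPM against 356 and 391. Pdgfrb had 51.6 and 118 against 212 and 293, and Higd1b 6.89 and 23.0 against 126 and 81.3. Cspg4 differed in direction, with 114 and 271 against 126 and 175. Of ciliary, iris or visceral smooth muscle genes, 10 summed to 812 and 1290 CPM in the Chodl set, against 256 and 426. They summed to 1369 and 1460 in the pigment-gene set. Neither set is given a cell type name here. All comparisons below use the whole gate, and a fit that limits both mural classes to cells with Rgs5 or Notch3 and without pigment or RPE genes, added after the values were seen, is called the limited fit below. Its counts are given for each gene list where they differ.

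**Figure D2:**
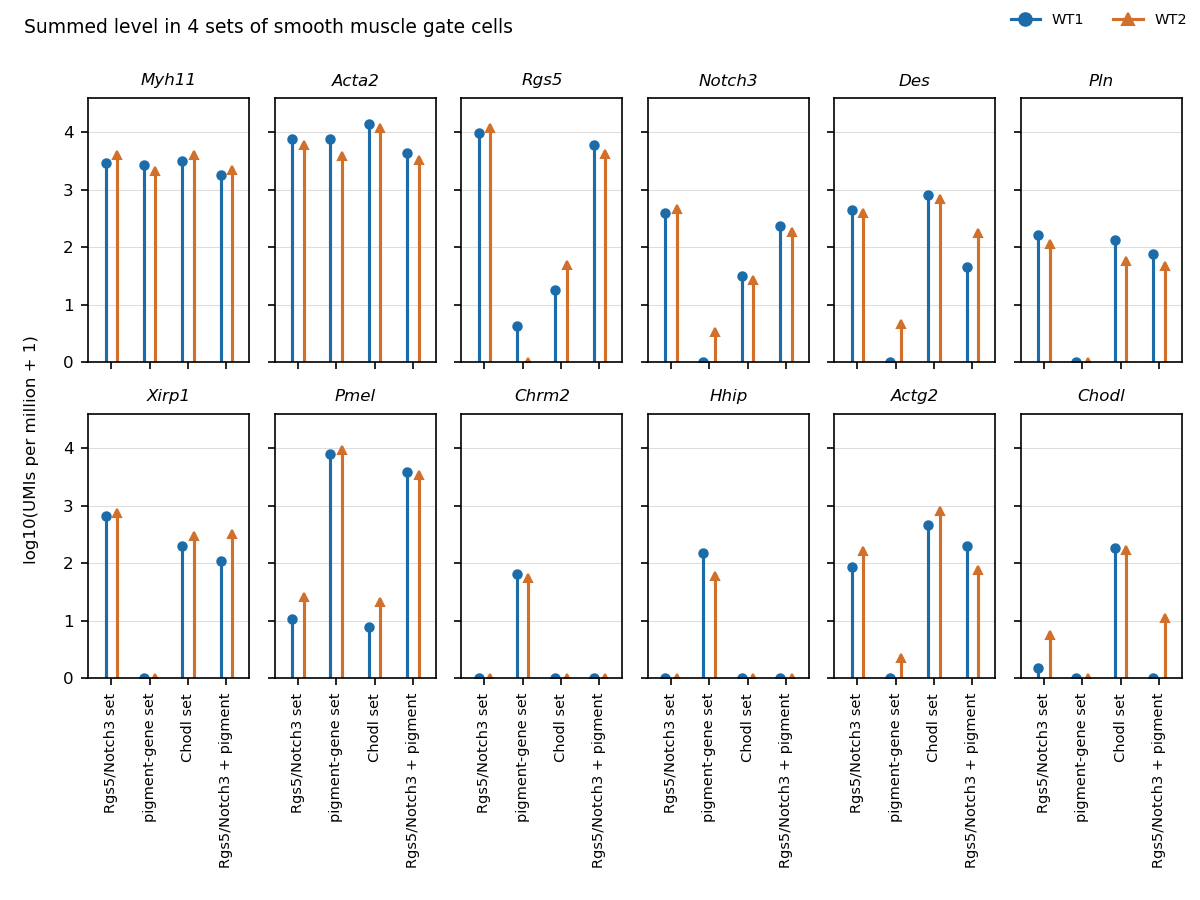
Summed level of 12 genes in 4 sets of cells within the smooth muscle gate, as log10 of CPM plus 1, for WT1 (circles) and WT2 (triangles). Myh11 and Acta2 are high in every set, and Rgs5, Pln and Xirp1 are near or at 0 in the pigment-gene set. Pmel helped define that set and is also high in the cells with Rgs5 or Notch3 and pigment genes. Chrm2 and Hhip mark the pigment-gene set, and Chodl and Actg2 are highest in the Chodl set.

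The contractile genes were counted as levels only. Of 28 such genes found besides Tagln and Des, 23 stood at more than 2 times the pericyte level in both libraries and 24 were highest in smooth muscle cells of 6 classes. Myl9, the regulatory light chain of smooth muscle myosin (ENSMUSG00000067818, GRCm38 chromosome 2, 156775420 to 156781658), stood at 3722 and 2525 CPM against 555 and 366 in pericytes. Myl6, the essential light chain, stood at 5364 and 3949 against 1341 and 1142, and the tropomyosins Tpm1 and Tpm2 at 3029 and 3626 against 1227 and 1501 and at 3898 and 2837 against 718 and 580.0. Mustn1, a small nuclear protein of muscle, stood at 1489 and 978 against 384 and 216. Cald1 (caldesmon, which restrains actomyosin) was the exception among the 6 genes of highest level, with 1329 and 1577 CPM against 1536 and 1606. Genes of the kinase and phosphatase that set light chain phosphorylation were also higher by level. Mylk, the myosin light chain kinase, had 1107 and 1248 CPM against 163 and 228, and Ppp1r14a (CPI-17, the inhibitor of the phosphatase) had 253 and 173 against 62.5 and 34. Susd5, which codes for a sushi domain protein, stood at 61.6 and 92 CPM and had 0 UMIs in pericytes, at least 142-fold higher when 3 UMIs over the pericyte class are taken as the floor. Ldb3, a Z-disc protein of muscle, stood at 23.9 and 27.3 CPM with 0 UMIs in pericytes, at least 45.2-fold higher.

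Many contractile genes are known targets of SRF, which binds the CArG box, and some of their promoters are shown here for that motif. The search was for CC and GG around 6 letters that are each A or T, a pattern that reads the same on both strands, in RefSeq windows (GRCm38.p6) from 250 bases before to 50 after each annotated start. A box was found for 5 of the 28 gate and contractile genes with a window (17.9%) and for 488 of 27025 genes in all (1.81%). These were Myl9, Myl6, Cnn2, Vcl and Ldb3, and Myh11, Tagln, Actg2 and Nexn were among the genes with no entry. With 1 of the 6 letters allowed to be G or C, 9 of the 28 (32.1%) and 11.3% of all genes had a match, and Acta2 and Myl9 were the 2 of the 28 with at least 2 matches (7.14%, against 0.932% of all genes). A match is a description of these letters and no evidence of binding. Each stretch runs 5′ to 3′ on the gene's strand and ends before the start, with the box in capitals. They lie at chr2:156775273-156775342 (+ strand) for Myl9, chr10:79988514-79988583 (+) for Cnn2, chr14:20929148-20929210 (+) for Vcl, chr10:128493020-128493089 (- strand) for Myl6 and, with the looser pattern, chr19:34255374-34255487 (-) for Acta2.
Myl9: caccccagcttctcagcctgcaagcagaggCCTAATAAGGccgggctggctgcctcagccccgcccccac
Cnn2: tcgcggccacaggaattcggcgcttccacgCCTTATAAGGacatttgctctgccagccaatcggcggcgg
Vcl: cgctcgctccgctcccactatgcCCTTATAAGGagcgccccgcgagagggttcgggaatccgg
Myl6: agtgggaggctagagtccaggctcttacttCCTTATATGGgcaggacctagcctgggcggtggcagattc
Acta2: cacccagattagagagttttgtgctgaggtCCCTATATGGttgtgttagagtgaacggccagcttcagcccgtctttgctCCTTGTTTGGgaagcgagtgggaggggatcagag
Cnn2 and Vcl carry the same 10 letters. Cnn2, a calponin that is not limited to muscle, stood at 77.8 and 69.2 CPM against 25.2 and 26.3 in pericytes, and Vcl (vinculin, which anchors actin at the membrane) at 308 and 401 against 204 and 310.0.

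Against pericytes, 1259 of 14477 genes tested were higher in smooth muscle cells (8.7%) and 950 were lower (6.56%). Calls came from edgeR's quasi-likelihood test with Benjamini-Hochberg adjustment over all genes tested, at an adjusted p under 0.05 and at least a 2-fold change, and 2208 of the 2209 calls had the same sign in both libraries. These percentages are the background for the counts over the whole gate below, and the median log2 fold change over all genes was 0.03. The limited fit called 1007 genes higher and 976 lower. Its number of genes tested is not given here, so its list counts below have no such percentage beside them. Pericytes were cells with at least 3 UMIs of Kcnj8, Abcc9 and Higd1b together, at least 1 of Pdgfrb and at most 1 of Myh11 and Cnn1. They also met the smooth muscle limits of at most 2 of Ptprc, Cdh5 and Sox10 together and at most 5 of Lum and Dcn together. This gave 394 and 511 cells. Both classes were gated by transcripts of the same cells, so genes that vary with the gate genes from cell to cell move with the gates. Both classes also held markers of other cells. The 6 RPE markers summed to 427 and 2561 CPM in smooth muscle cells and 693 and 2587 in pericytes, and the 7 fibroblast markers to 89.7 and 131 against 437 and 496. The 6 melanocyte markers summed to 3027 and 4493 against 743 and 1778, and the 4 rod markers to 10.0 and 6.63 against 48.6 and 136. The 8 endothelial markers summed to 88.9 and 123 against 929 and 1035, of which Emcn alone gave 74.7 and 94.3 against 858 and 961, while Cdh5 had 0.770 and 0.975 against 1.35 and 1.68 and Kdr 0 and 0.780 against 1.35 and 2.69. The part of these cells or RNA in the calls was not tested beyond the limited fit. Members of the gene lists that were too sparse to test, or not listed under that symbol, are left out of the counts, 7 of 58 receptor genes, 7 of 68 transcription factor genes, 10 of 25 position-linked genes and at most 2 of each other list. Genes outside the naming rule are given below to spell out the counts and were chosen after their values were seen.

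Genes of ion channels and calcium handling were higher in smooth muscle cells for 18 of 35 members tested and lower for 2, with a median log2 fold change of 1.21. In the limited fit 19 were higher and 2 lower. Pln (phospholamban, the brake on the calcium pump of the sarcoplasmic reticulum; ENSMUSG00000038583, GRCm38 chromosome 10, 53337667 to 53345987) stood at 138 and 87.5 CPM, from 359 and 449 UMIs, and had 0 UMIs in both pericyte sums. That is at least 181-fold higher (adjusted p = 9.59e-05), and both smooth muscle sums lay far above both pericyte sums. Its target Atp2a2 (SERCA2) stood at 912 and 956 CPM against 306 and 467 (1.34 ± 0.14 on the log2 scale, SE; adjusted p = 3.45e-05). Release and storage genes moved the same way. The ryanodine receptor gene Ryr2 stood at 16.2 and 23.8 CPM and had 1 UMI in pericytes, and Casq2 (calsequestrin, which stores calcium) stood at 58.1 and 65.1 against 5.40 and 4.71 (3.68 ± 0.55; adjusted p = 0.00115). Slc8a1, the sodium-calcium exchanger, stood at 33.9 and 56.7 against 0.900 and 2.69 (4.64 ± 0.29; adjusted p = 5.66e-07).

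The BK channel, a calcium-activated potassium channel that relaxes smooth muscle, was higher for both subunits. Kcnma1, its pore (ENSMUSG00000063142, GRCm38 chromosome 14, 23289431 to 24014491), stood at 37 and 54.6 CPM and had 1 UMI in pericytes, a ratio of 253-fold (45.1 to 10006) with the exact 95% counting interval in brackets (adjusted p = 9.38e-06). Kcnmb1, the beta subunit of smooth muscle, stood at 35.8 and 31.6 against 0.450 and 1.35 (5.15 ± 0.46; adjusted p = 6.76e-06). The potassium channel genes Kcnab1, Kcna5 and Kcnk3 were also higher, Kcnab1 with 88.9 and 98.8 CPM against 2.70 and 2.36. The T-type calcium channel genes Cacna1h and Cacna1g rose as well, from 1.35 and 1.35 CPM of Cacna1h in pericytes to 14.2 and 13.1. Cacna1c, the pore of the L-type channel, stood at 45 and 55.4 CPM against 22.9 and 29.6. Its change of 0.96 ± 0.24 (adjusted p = 0.0116) missed the fold limit, and in the limited fit it was called (1.18). Itpr2, an inositol trisphosphate receptor, was among the lower members, with 4.24 and 7.41 CPM against 14.4 and 29.3 (-1.87 ± 0.24; adjusted p = 0.000113). Kcnj8 and Abcc9, the ATP-sensitive potassium channel of pericytes, were pericyte gate genes and are given as levels. In smooth muscle cells Kcnj8 stood at 60.1 and 49.5 CPM and Abcc9 at 20.4 and 53.4. In the pigment-gene set Pln and Kcnma1 were at 0, and in the Chodl set Kcnma1 stood at 89.5 and 153 CPM.

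Receptors for vasoactive agents split, with 9 of 51 tested higher and 13 lower. P2rx1, the ATP-gated channel through which sympathetic nerves contract arteries (ENSMUSG00000020787, GRCm38 chromosome 11, 72999103 to 73015200), stood at 25.8 and 29.8 CPM with 67 and 153 UMIs and had 0 and 1 UMIs in pericytes, a ratio of 148-fold (26.3 to 5865) (adjusted p = 1.31e-05). Ramp1, the partner of the receptor for the dilator peptide CGRP, stood at 55.4 and 48.5 CPM against 0.900 and 2.36 (4.92 ± 0.45; adjusted p = 1.14e-05). The genes for receptors of 2 further nerve peptides were higher, Npy1r (neuropeptide Y) with 16.6 and 18.3 CPM against 1.35 and 0.337 and Vipr2 (vasoactive intestinal peptide) with 10.4 and 16 against 1.35 and 3.03. P2ry2, a nucleotide receptor gene, stood at 21.6 and 18.9 against 6.75 and 6.73.

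Chrm2 and Chrm3 (muscarinic), Htr2b (serotonin) and Adra1a (alpha-1A adrenergic) stood higher by level in a set without Rgs5 and Notch3 than in the set with them. Adra1a had 45 UMIs in the whole gate, so its levels in single sets rest on few UMIs. Chrm2 had 7.32 and 8.77 CPM in the whole gate and 0 UMIs in pericytes (adjusted p = 0.000385). It had 0 UMIs in the Rgs5 and Notch3 set, and its call was lost in the limited fit (adjusted p = 1.00). Htr2b had 43.7 and 25.5 CPM in the pigment-gene set and 0 and 0 in the Rgs5 and Notch3 set, where it was too sparse to test. Adra1a had 6.73 and 26.7 CPM in the pigment-gene set and 2.08 and 2.52 in the Rgs5 and Notch3 set, and its call was lost too (adjusted p = 0.0668). Chrm3, at 27.5 and 20.2 CPM in the Chodl set and 0.521 and 1.68 in the Rgs5 and Notch3 set, remained called. It had 22 UMIs in the whole gate and 0 in pericytes, and fewer than 22 entered the limited fit, so that call rests on few UMIs.

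The lower receptors included those for angiotensin II and endothelin. Agtr1a, the angiotensin receptor gene (ENSMUSG00000049115, GRCm38 chromosome 13, 30336441 to 30382867), stood at 1.93 and 1.95 CPM against 20.2 and 29.3 in pericytes (-3.73 ± 0.35; adjusted p = 9.16e-06). Ednra, the endothelin A receptor gene, stood at 271 and 290.0 against 581 and 671 (-1.13 ± 0.23; adjusted p = 0.00676), but in the limited fit the change was -0.78 and not called. Adra2b (an alpha-2 adrenergic receptor) stood at 1.93 and 1.17 against 17.1 and 13.1, Adora2a (an adenosine receptor) at 3.47 and 3.12 against 18.4 and 15.5 and S1pr1 (a sphingosine 1-phosphate receptor) at 29.6 and 38.8 against 111 and 90.2. Each of these was lower in both libraries. In the limited fit 8 receptors were higher and 9 lower.

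Regulators of tone inside the cell moved both ways, with 7 of 36 tested higher and 6 lower (7 and 5 in the limited fit). Rgs5 itself did not pass the test, with 7484 and 8637 CPM in smooth muscle cells and 8471 and 12170.0 in pericytes (-0.29 ± 0.47; adjusted p = 0.721). Of its family, 3 other genes were lower. Rgs16 stood at 20.8 and 42.9 CPM against 180.4 and 175 (-2.38 ± 0.43; adjusted p = 0.00673), Rgs4 at 199 and 197 against 626 and 663 (-1.68 ± 0.10; adjusted p = 4.65e-07) and Rgs2 at 98.9 and 125 against 286 and 326. Of the phosphodiesterase genes, Pde3a and Pde1a were higher and Pde4d and Pde10a lower, the last not called in the limited fit. Pde3a, which breaks down cAMP and is inhibited by cGMP, stood at 427 and 580.2 against 108 and 151 (1.99 ± 0.22; adjusted p = 0.000129), while Pde4d stood at 36.2 and 68.6 against 176 and 212 (-1.90 ± 0.15; adjusted p = 2.30e-06). The targeting subunit of myosin phosphatase, Ppp1r12a, stood at 550.2 and 739 against 121 and 221 (1.98 ± 0.13; adjusted p = 6.36e-07). Mrvi1, a substrate of the cGMP kinase at the calcium store, stood at 138 and 189 against 31.5 and 59.2 (1.90 ± 0.25; adjusted p = 0.000243). The subunits of the nitric oxide receptor, Gucy1a1 and Gucy1b1, were not called, with 336 and 369 CPM of Gucy1a1 in smooth muscle cells and 535 and 592 in pericytes.

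**Figure D3:**
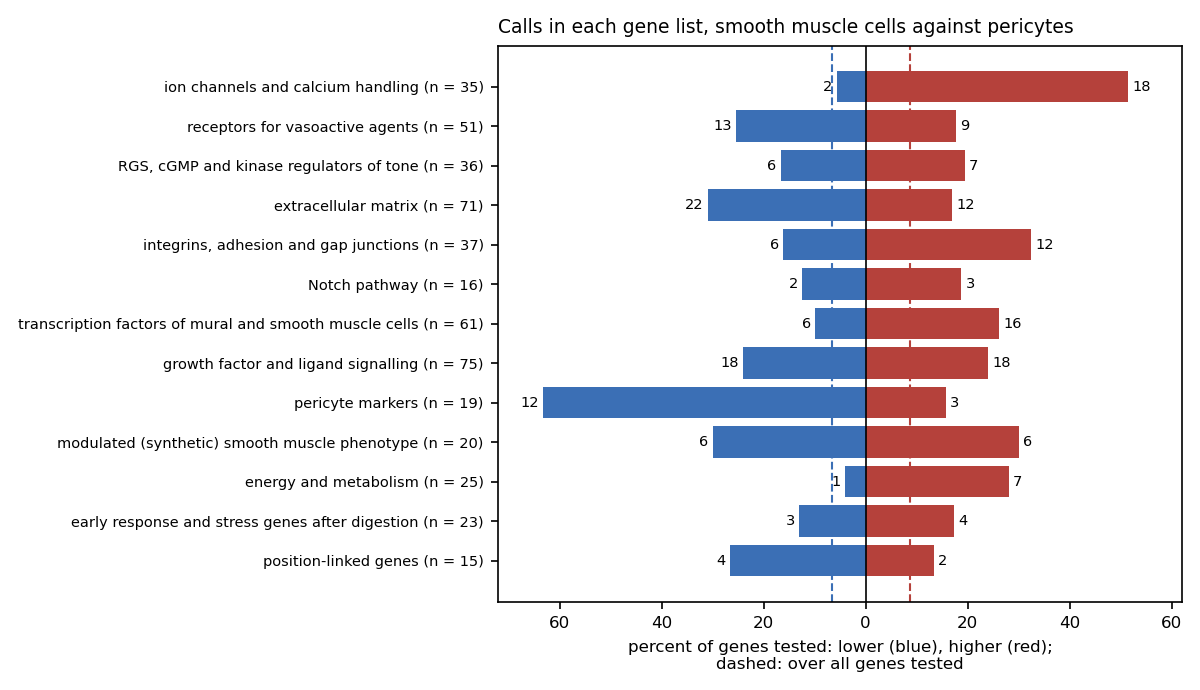
Percent of the genes tested in each of 13 lists that were called lower (left, blue) or higher (right, red) in smooth muscle cells than in pericytes, with the number of genes at each bar. Dashed lines mark 6.56% and 8.7%, the shares over all 14477 genes. Ion channels and calcium handling have 18 higher calls of 35, and pericyte markers 12 lower calls of 19.

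Among transcription factors of mural and smooth muscle cells, 16 of 61 tested were higher and 6 lower (19 and 5 in the limited fit). Myocd (myocardin, the coactivator of SRF; ENSMUSG00000020542, GRCm38 chromosome 11, 65176561 to 65269989) stood at 41.6 and 87.7 CPM against 0.900 and 2.69 (5.16 ± 0.44; adjusted p = 5.30e-06), and Srf itself at 13.1 and 20.5 against 4.95 and 6.40 (1.61 ± 0.36; adjusted p = 0.00504). Klf2, a factor induced by flow in endothelium, stood at 571 and 261 against 57.1 and 55.5 (2.82 ± 0.34; adjusted p = 0.00105). Foxs1, Foxf1 and Foxc2, forkhead factors of mural cells, were also higher, Foxs1 with 266 and 166 CPM against 69.3 and 48.5. Mef2c, a muscle factor, stood at 215 and 197 against 71.5 and 95.9, and Tsc22d1, a leucine zipper factor, at 797 and 730.3 against 202 and 163. Tcf21, which marks stromal precursors, was lower with 1.54 and 4.09 against 83.7 and 39.7 (-4.06 ± 0.40; adjusted p = 3.17e-05). Ebf1 stood at 400.0 and 315 against 888 and 715 (-1.14 ± 0.12; adjusted p = 2.47e-05), and its call was lost in the limited fit (-0.86).

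In the Notch pathway 3 of 16 genes were higher and 2 lower (3 and 1 in the limited fit). Nrarp, a feedback inhibitor of Notch (ENSMUSG00000078202, GRCm38 chromosome 2, 25180758 to 25183339), stood at 490.5 and 344 CPM against 40.5 and 35 (3.47 ± 0.36; adjusted p = 0.000355), and the call was lost when free RNA was subtracted (3.40 on the log2 scale). Nrip2, a nuclear receptor-interacting protein, stood at 82 and 53.4 against 3.15 and 1.35 (4.98 ± 0.48; adjusted p = 2.28e-05), and the receptor gene Notch2 at 98.9 and 65.3 against 48.6 and 29.96. Notch3 did not pass the test, with 305 and 334 CPM in smooth muscle cells and 325 and 419 in pericytes. The ligand Dll1 was lower, with 0.385 and 1.17 against 18 and 23.9 (-4.57 ± 0.40; adjusted p = 5.49e-06), as was Notch1, with 40.8 and 63.5 against 89.5 and 144. In the limited fit the fall of Notch1 was -0.93 and not called.

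Of 15 genes linked to position in the embryo, 2 were higher and 4 lower (2 and 3 in the limited fit). Msx1, a homeobox gene of neural crest tissue, stood at 47 and 21.6 CPM against 10.3 and 6.40 (2.02 ± 0.41; adjusted p = 0.00444), and Alx1, a homeobox gene of the frontonasal mesenchyme, at 17.7 and 17.7 against 5.85 and 7.74. Dlx5, a further homeobox gene, stood at 5.78 and 4.09 against 40.5 and 54.2 (-3.32 ± 0.33; adjusted p = 1.65e-05), and the zinc finger genes Tshz3 and Tshz2 at 9.24 and 8.58 against 46.8 and 62.3 and at 47.4 and 58.7 against 317 and 254. Six2, the fourth lower gene, was sparse in both classes, with 1.16 and 0.975 against 5.40 and 3.70 CPM, and was not called in the limited fit.

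Extracellular matrix genes were lower in smooth muscle cells for 22 of 71 members and higher for 12. Basement membrane chains differed in direction. The laminin chain Lama5 (ENSMUSG00000015647, GRCm38 chromosome 2, 180176373 to 180225859) stood at 126 and 108 CPM against 5.40 and 7.41 (4.19 ± 0.32; adjusted p = 5.69e-06), while Lamc3 stood at 12.3 and 14 against 127 and 162 (-3.46 ± 0.22; adjusted p = 5.66e-07). Lama2 and Lamb1 were also lower, with 28.1 and 67.8 CPM of Lama2 against 150.3 and 345. The collagen IV chains Col4a1 and Col4a2 were lower, Col4a1 with 334 and 499 against 873 and 1291 (-1.35 ± 0.23; adjusted p = 0.00336). Elastic fibre genes were higher for Eln (elastin), with 43.9 and 47 against 4.95 and 5.72 (3.10 ± 0.51; adjusted p = 0.00273), and for Ltbp1, which holds latent TGF-beta in the matrix, with 118 and 173 against 11.2 and 11.8 (3.70 ± 0.24; adjusted p = 6.53e-07). Fbn1 (fibrillin) and Ltbp4 were lower, Fbn1 with 35.8 and 77.6 against 160.2 and 239.7. The interstitial collagens Col1a1, Col3a1, Col5a1 and Col5a2 were lower too, Col1a1 not in the limited fit, and the fibroblast markers summed higher in pericytes as given above. Thbs1, a matricellular protein that activates TGF-beta, stood at 2086 and 2598 against 529 and 711 (1.95 ± 0.14; adjusted p = 2.64e-06). In the limited fit 7 were higher and 26 lower. Spon1 (F-spondin), one of those lost, had 454 and 610.1 CPM in the pigment-gene set and 0.521 and 2.52 in the Rgs5 and Notch3 set.

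Integrin, adhesion and gap junction genes were higher for 12 of 37 members and lower for 6 (10 and 6 in the limited fit). Sgca, a sarcoglycan of the dystrophin complex, stood at 18.9 and 16 CPM and had 1 UMI in pericytes, a ratio of 88-fold (15.5 to 3503) (adjusted p = 4.60e-05). Dmd (dystrophin), Utrn (utrophin) and Sspn (sarcospan) of the same complex were higher too, Dmd with 152 and 226 against 71.5 and 101 (1.16 ± 0.14; adjusted p = 5.74e-05). Itga3, a laminin-binding integrin chain, stood at 31.6 and 32.5 CPM and had 2 UMIs in pericytes, a ratio of 83.7-fold (22.9 to 695) (adjusted p = 3.54e-05), while Itgb3 and Itga1 were lower, Itgb3 with 6.16 and 10.9 against 52.6 and 71 (-2.77 ± 0.23; adjusted p = 3.33e-06). Mcam (CD146, an adhesion molecule of the vessel wall) stood at 254 and 177 against 43.6 and 39 (2.39 ± 0.16; adjusted p = 8.23e-07). Gja1 (connexin 43) was called higher, but had 686 and 811 CPM in the pigment-gene set and 1.56 and 17.9 in the Rgs5 and Notch3 set, and the call was lost in the limited fit (0.27). Gja4 was not called, with 1126 and 657 CPM against 841 and 495.

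Growth factor and ligand genes were higher for 18 of 75 members and lower for 18, and in the limited fit for 12 and 18. Pdgfa, a growth factor that acts on PDGFRA-bearing stroma, stood at 1475 and 1236 CPM against 342 and 254 (2.22 ± 0.12; adjusted p = 2.74e-07). Inhba, the activin A subunit, stood at 63.1 and 88.3 against 3.60 and 5.05 (4.14 ± 0.39; adjusted p = 3.28e-05), a call lost when free RNA was subtracted (6.72). Hbegf (an EGF family ligand), Fgf1 and Ccn3 were higher, Hbegf with 960.2 and 807 against 271 and 263 (1.75 ± 0.15; adjusted p = 9.28e-06). Chemokine genes were lower, Ccl2 with 160.2 and 161 against 3664 and 1673 (-3.93 ± 0.44; adjusted p = 0.00156) and Cxcl12 with 40.8 and 50.7 against 405 and 477 (-3.24 ± 0.12; adjusted p = 2.93e-08). The call of Ccl2 was lost when only smooth muscle and pericyte sums were fitted (-3.90). Edn3 (endothelin 3) and Igf1 were lower as well, Edn3 with 27 and 48.9 against 468 and 527 (-3.71 ± 0.20; adjusted p = 6.36e-07).

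For Pdgfra, Hhip and Cox8b, which is a gene of energy metabolism, the call changed with the cells that entered the classes. Pdgfra, a receptor of fibroblasts, stood at 1.54 and 2.73 CPM in smooth muscle cells and 37.4 and 37.7 in pericytes (-4.08 ± 0.40; adjusted p = 5.18e-05). It was not called in the limited fit (-1.24), with pericytes defined by Rgs5 (-1.43) or with free RNA subtracted (-6.46). Hhip stood at 16.9 and 9.55 CPM against 1.35 and 0.337 (4.06 ± 0.88; adjusted p = 0.00696), and with free RNA subtracted it was not called (4.70). All its UMIs (44 and 49) came from the pigment-gene set. With 0 UMIs left in smooth muscle cells, the limited fit made no call (adjusted p = 0.452) and its fold is not a measured one. Cox8b, the muscle-type cytochrome oxidase subunit, stood at 28.9 and 121 against 1.35 and 5.72 (4.33 ± 0.71; adjusted p = 0.00513), had 242 and 645 in the pigment-gene set, and was not called in the limited fit (-0.54; adjusted p = 0.868), where it kept 1 and 7 UMIs.

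**Figure D4:**
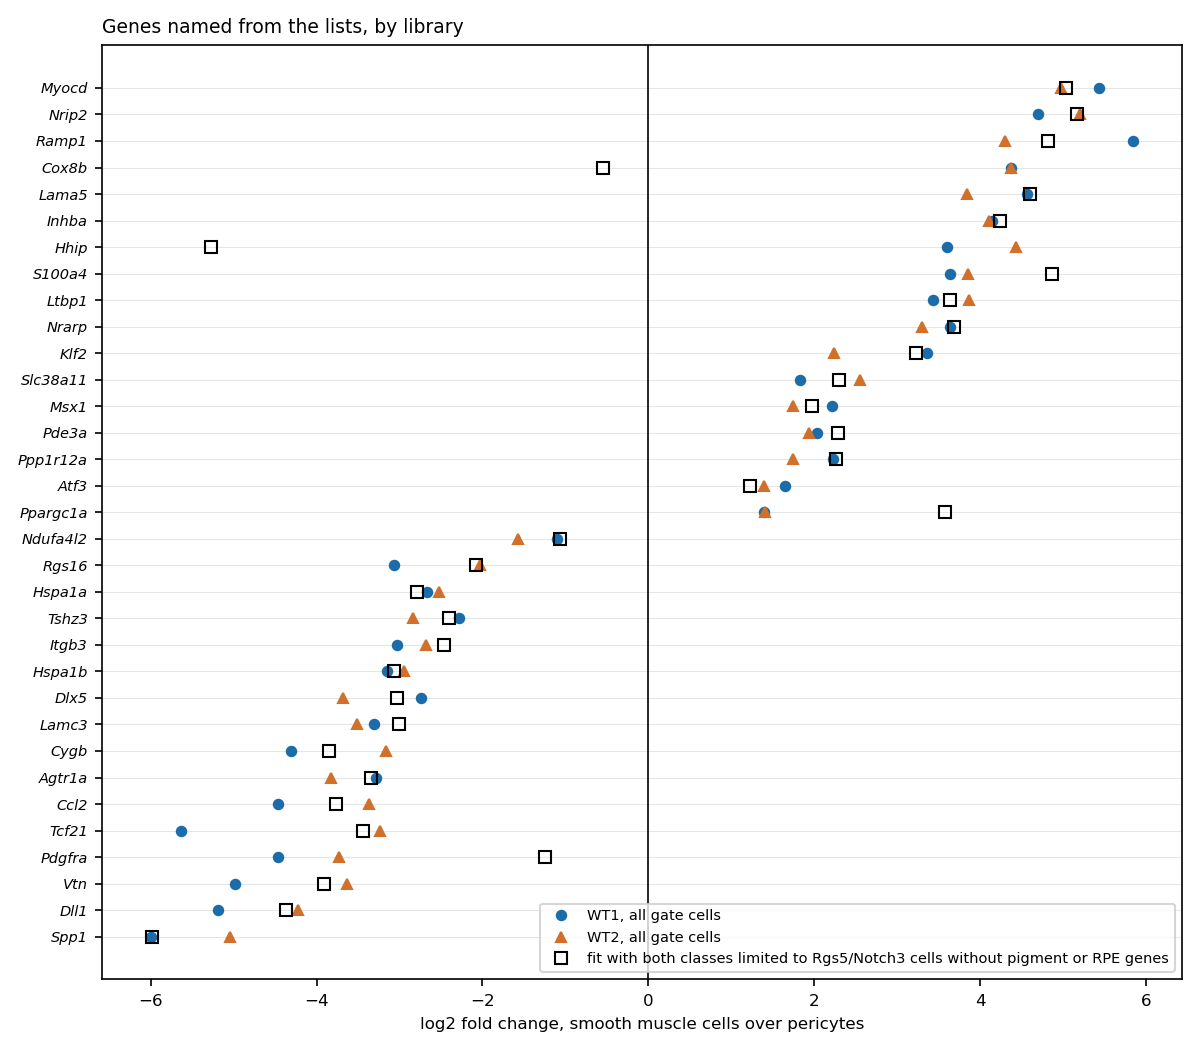
Log2 fold change of smooth muscle cells over pericytes for genes named from the lists that had more than 3 UMIs in each class, in WT1 (circles) and WT2 (triangles), with squares for the fit limited to cells with Rgs5 or Notch3 and without pigment or RPE genes. The libraries share the sign for every gene shown, and the squares of Hhip and Cox8b lie on the other side of 0, that of Hhip from 0 UMIs in the smooth muscle cells kept.

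Of 19 pericyte marker genes tested, 12 were lower and 3 higher, and the list was chosen for that difference in other tissues. Vtn (vitronectin) stood at 7.70 and 12.5 CPM against 255 and 157 (-4.22 ± 0.48; adjusted p = 0.000654) and Cygb (cytoglobin) at 11.6 and 29.2 against 239 and 264 (-3.58 ± 0.45; adjusted p = 0.00147). Steap4 (a metalloreductase) stood at 60.8 and 88.9 against 487 and 594 and Ifitm1 (an interferon-induced membrane protein) at 44.3 and 49.9 against 617 and 417. The 3 higher genes were Slc38a11 (a putative amino acid transporter), with 23.5 and 22.2 against 6.75 and 3.70 (2.19 ± 0.42; adjusted p = 0.00234), Gm13861 and Cspg4. Cspg4 codes for the NG2 proteoglycan that is used as a pericyte marker, and stood at 109 and 148 against 40.9 and 68 (1.28 ± 0.19; adjusted p = 0.000433). Cox4i2 and Rgs5 were not called.

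Genes of the modulated, or synthetic, smooth muscle phenotype were higher for 6 of 20 and lower for 6. Spp1 (osteopontin; ENSMUSG00000029304, GRCm38 chromosome 5, 104435118 to 104441050) stood at 97 and 139 CPM against 6387 and 4607 in pericytes (-5.44 ± 0.34; adjusted p = 5.68e-05). Mgp, a calcification inhibitor, stood at 2960.4 and 2545 against 10677 and 7959 (-1.72 ± 0.32; adjusted p = 0.0112). S100a4, a calcium-binding protein, was higher with 93.2 and 108 against 7.65 and 7.41 (3.79 ± 0.30; adjusted p = 1.22e-05), as was Myh10, the non-muscle myosin heavy chain, with 26.2 and 53 against 6.75 and 9.43. Lgals3, also called higher, had 1982 and 548 CPM in the pigment-gene set and 50.03 and 69 in the Rgs5 and Notch3 set, and was not called in the limited fit, where 3 genes were higher and 5 lower.

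In energy metabolism 7 of 25 genes were higher and 1 lower (6 and 2 in the limited fit). Ppargc1a (PGC-1 alpha, which drives mitochondrial biogenesis) stood at 24.3 and 26.9 CPM against 9.45 and 10.1 (1.41 ± 0.29; adjusted p = 0.00308). The limited fit gave 3.58, and with free RNA subtracted (2.88) it was not called. Ndufa4l2, a hypoxia-induced mitochondrial protein, was the gene called lower over the whole gate, with 292 and 192 against 644 and 573 (-1.34 ± 0.29; adjusted p = 0.0118). It was not called without the library block (-1.29) or with free RNA subtracted (-1.67). The smooth muscle creatine kinase gene Ckb, a member of the contractile list, stood at 1238 and 865 CPM against 360.4 and 307.

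Among 23 early response and stress genes, 4 were higher and 3 lower (3 and 2 in the limited fit). The heat shock genes Hspa1b and Hspa1a were lower, with 134 and 149 CPM of Hspa1b against 1231 and 1154 (-3.03 ± 0.37; adjusted p = 0.00151) and 233 and 209 of Hspa1a against 1535 and 1206 (-2.59 ± 0.32; adjusted p = 0.00144). Atf3, a stress-induced transcription factor, was higher with 936 and 919 against 307 and 351 (1.53 ± 0.13; adjusted p = 5.64e-06), as was Gadd45b with 2799 and 1646 against 1042 and 967. Fos, Jun and Egr1 were not called, with 574 and 430.4 CPM of Fos in smooth muscle cells and 369 and 399.6 in pericytes. Genes of this kind can respond to tissue digestion, which both classes went through, and its part in these differences was not tested.

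Over all genes, several of the largest rises against pericytes belonged to the smaller groups of the gate. Besides Pln, the genes with the largest fitted folds and at least 20 UMIs in each library all had 0 UMIs in pericytes. Prkg2 (a cGMP-dependent kinase; 34 and 83 UMIs, at least 26.2-fold higher), Mamdc2 (a MAM domain matrix protein; 31 and 67 UMIs, at least 22-fold) and Tcap (telethonin, a sarcomere protein; 29 and 56 UMIs, at least 19-fold) were carried by the Rgs5 and Notch3 set, with 16.7 and 21.3, 15.1 and 17.4 and 9.90 and 13.5 CPM there. Tcap was higher still in the Chodl set, with 34.4 and 23 CPM. Barx2 (a homeobox factor), Npsr1 (the neuropeptide S receptor), Necab2 (a neuronal calcium-binding protein), Sprr1a, Ube2ql1 and 4930435M08Rik were carried by the pigment-gene set. Barx2 had 377 and 38.9 CPM there and 0 and 0 in the Rgs5 and Notch3 set, and Npsr1 had 121 and 97.2 against 0 and 0.561. Barx2, Sprr1a and 4930435M08Rik lost their calls in the limited fit (0.01, 4.89 and 0.05), where Npsr1, Necab2 and Ube2ql1 were too sparse to test. The call of Barx2 was also lost without Scrublet doublets (11.43), and that of Sprr1a with free RNA subtracted (10.44). Chodl had 182 and 167 CPM in the Chodl set, and Trnp1, a nuclear protein of proliferating neural progenitors, had 67.3 and 76.6 in the pigment-gene set and 62 and 25.9 in the Chodl set.

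Of the 8 largest falls against pericytes, Spp1 is described above, and the other 7 are given here. Scgb1a1, a secretoglobin of airway epithelium, had 0 UMIs in smooth muscle cells and 32 and 21 in pericytes, at least 26.3-fold lower (adjusted p = 0.0142). Crym, a thyroid hormone-binding crystallin, had 0 and 2 UMIs in smooth muscle cells and 40 and 22 in pericytes, a ratio of 46.1-fold (12.2 to 389) lower (adjusted p = 0.00394). The calls of Scgb1a1 and Crym were lost with at most 2 UMIs of Lum and Dcn (-7.89 and -4.14), with pericytes defined by Rgs5 (-9.48 and -2.51) and in the limited fit (-10.36 and -3.49), and that of Crym also with free RNA subtracted (-9.65). Col10a1, a collagen of hypertrophic cartilage, stood at 2.31 and 3.70 CPM against 175 and 237 (-6.05 ± 0.35; adjusted p = 1.20e-06). Svopl stood at 0.385 and 0.780 against 37.4 and 36.4, and Dcc (the netrin receptor) at 0 and 1.17 against 17.1 and 44.4 (-5.48 ± 0.56; adjusted p = 2.27e-05). Shisa9, a regulator of glutamate receptors, had 2 and 1 UMIs against 64 and 71, and Msc, a repressor of muscle differentiation, had 2 and 0 against 25 and 47.

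Against all other cells, which were neither smooth muscle nor pericytes, 1322 of 12365 genes tested were higher (10.7%) and 1998 lower (16.2%). Here ion channel and calcium handling genes were higher for 25 of 34 tested and lower for 2, and the median log2 fold change was 2.19 against -0.02 over all genes. Regulators of tone were higher for 20 of 36 and lower for 1, and transcription factors of the list for 31 of 59, with 6 lower. Xirp1, an actin-binding protein of striated muscle and vessels (ENSMUSG00000079243, GRCm38 chromosome 9, 120013755 to 120023598), stood at 512 and 560.2 CPM in smooth muscle cells and 3.64 and 4.55 in all other cells (7.21 ± 0.13; adjusted p = 4.84e-09). Pcsk1, a prohormone convertase, stood at 94.7 and 169 against 0.854 and 1.19 (7.17 ± 0.21; adjusted p = 5.17e-08), and Pln at 138 and 87.5 against 0.483 and 0.864 (7.44 ± 0.46; adjusted p = 0.00134). Olfr558, an olfactory-type receptor, stood at 85.5 and 81.5 against 0.668 and 0.834 (6.94 ± 0.19; adjusted p = 3.45e-08), and Gucy2g, a receptor-type guanylyl cyclase, at 27.3 and 13.1 against 0.173 and 0.158 (6.95 ± 0.37; adjusted p = 7.38e-07). P2rx1 was among these 8 as well, at 0.210 and 0.263 CPM in all other cells (7.02 ± 0.28; adjusted p = 1.43e-07), next to the uncharacterised transcripts 9530034E10Rik and 4631405J19Rik. The call of 4631405J19Rik against pericytes was lost with free RNA subtracted (10.10). Pcsk1 and 4631405J19Rik were at 0 in the pigment-gene set and the Chodl set, and Xirp1 was at 0 in the pigment-gene set. Matrix genes were lower for 33 of 70 and higher for 13 in this comparison. Fibroblasts were 45.8% and 45.1% of all cells of the libraries, and the gate left out cells with more than 5 UMIs of Lum and Dcn. These matrix counts are therefore not independent of the gate.

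Within the Rgs5 and Notch3 set, cells were divided at the median share of Rgs5 in each library, which gave 127 and 127 cells in WT1 and 239 below and 240 above in WT2, at like depth (6985 and 7245 UMIs in WT1, 7114 and 7042 in WT2). The division uses a measured gene and cells of the same libraries, so it is a description with no test. Counted were 2953 genes with at least 50 UMIs on at least 1 side of the median in each library. Of these, 54 were at least 2-fold higher and 33 at least 2-fold lower in the cells above the median. Both libraries had to show the change, with 10 CPM added to each level. A gene could pass this minimum through the side where it was high. The lower level can therefore rest on few UMIs, down to 6 for Eln.

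Elastin, Actg2 and Cnn1 stood at the low-Rgs5 end, while Des did not, with 369 and 394 CPM below the median and 539 and 399.6 above it. Eln had 69.9 and 89.3 CPM below the median and 6.25 and 8.55 above it. Actg2 had 141 and 269.7 below and 32.3 and 46.2 above, and Cnn1 had 180.5 and 304 below and 73.9 and 42.8 above. Penk (proenkephalin) had 159 and 180.3 below and 4.17 and 19.95 above. Ptgis (prostacyclin synthase) went from 191 and 209 below to 42.7 and 30.8 above, and the CGRP receptor partner Ramp1 from 73 and 81.6 to 20.8 and 20.5. At the high-Rgs5 end stood the endothelin B receptor gene Ednrb, with 15.6 and 27.6 CPM below and 128 and 269 above. Stc1 (stanniocalcin) went from 12.5 and 46.9 below to 100.0 and 322 above, and the calcium-activated chloride channel gene Ano1 from 91.8 and 131 to 267 and 352. Steap4 and Rgs4, called lower in smooth muscle cells than in pericytes, were on that side too, Steap4 with 20.9 and 46.9 below and 137 and 189 above and Rgs4 with 158 and 170.4 below and 335 and 382 above. The pericyte gate gene Higd1b had 73 and 46.3 below and 179 and 117 above. Casq2, called higher in smooth muscle cells than in pericytes, was also on that side, with 37.6 and 36.9 below and 92.7 and 144 above. Emcn, an endothelial marker, went from 23 and 46.3 below to 169 and 219 above. Myh11 varied little, with 3074 and 4353 CPM below and 2919 and 3697 above, and so did Pln, with 174 and 129.6 below and 152 and 100.3 above.

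**Figure D5:**
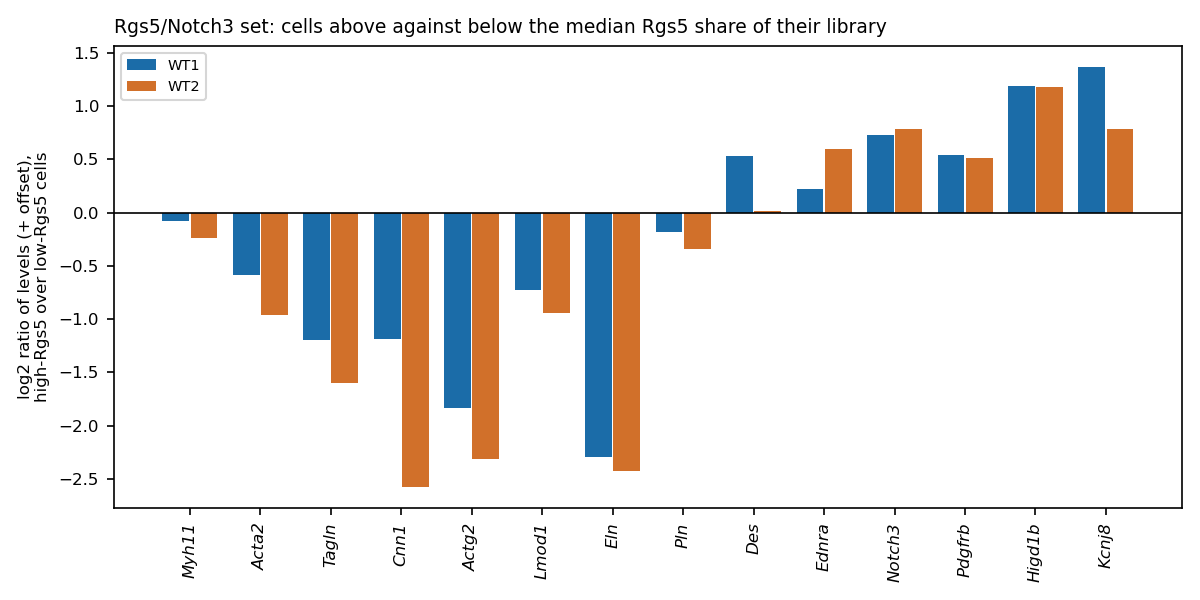
Log2 ratio of the level in cells above the median Rgs5 share over that in cells below it, within the Rgs5 and Notch3 set, for 14 genes in WT1 and WT2 (10 CPM added to each level). Eln, Actg2, Cnn1 and Tagln lie below 0, Kcnj8 and Higd1b above 0, and Myh11 and Pln close to 0.

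The share of cells with a UMI depends on depth, so it was also taken with each cell thinned to 2000 UMIs, which left out 1 smooth muscle cell in each library. Rgs5 had a UMI in 79.9% and 80.2% of thinned smooth muscle cells (82.9% and 85.3% unthinned), against 4.23% and 6.87% of thinned leukocytes, which should lack it (12.5% and 16.1% unthinned, median depths of 8459 and 9368 UMIs). Pln had a UMI in 22.0% and 15.2% of thinned smooth muscle cells and in at most 0.176% of thinned leukocytes. Pcp4, a gene of the pigment-gene set, had a UMI in 6.05% and 8.45% of thinned smooth muscle cells, close to the share of that set. Kcnj8 had a UMI in 7.96% and 7.26% of smooth muscle cells and in 2.11% and 5.46% of leukocytes. The estimated free RNA share was 2.13% in smooth muscle cells of WT2 and 10.8% in its leukocytes, so the leukocyte share is no exact background for smooth muscle cells.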

How the data were processed

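Each deposited matrix gives UMI counts, not normalized, of every gene in every barcode. The authors used Cell Ranger, version 4 per the file headers but 2.1.1 per the submitters' processing notes, which also name mm10 as build. The annotation behind the counts was not given in the sources used here. Cells were barcodes with at least 1000 UMIs and 500 genes whose mitochondrial share did not pass 20%, 8497 in WT1 and 13401 in WT2. Doublets (Scrublet in scanpy 1.11.5) were left in and removed as an alternative. The members and gene lists were chosen with earlier results of these data known. Counts were summed per library for 6 classes (smooth muscle, pericytes, endothelial cells, leukocytes, fibroblasts, remaining cells), 12 sums in all, and fitted with edgeR 4.0.16 (R 4.3.3): TMM scaling, filterByExpr, robust quasi-likelihood, library as a block and 5 residual degrees of freedom. The comparison with all other cells used 6 sums and 2 residual degrees of freedom. Classes of 1 library come from the same mice, which is why library is a block. The libraries are pools of separate mice, and p-values measure how class differences vary between them. In the fits, 42 gate, marker and contractile genes (41 against all other cells) stayed in the library sizes and out of the tests. Of the symbols, 40 occur for more than 1 gene ID, and rows were kept by ID. Named genes were, besides markers and gate genes and the 6 contractile genes of highest level, of each list, up to 3 called genes (up to 2 in 1 direction where both had calls) with the largest change and at least 20 UMIs in each library in the higher class, and over all genes the 12 with the largest rise and 8 with the largest fall against pericytes and the 8 with the largest rise against all other cells, under the same limits. Some genes of the lists, 1 of them picked by this rule, are not reported here. Gene positions are from GENCODE M21 (GRCm38). Lower bounds use a floor of 3 UMIs over a class. Intervals and floors cover counting error only. The fit was tested on simulated counts. DESeq2 1.42.0, other gates, other scaling and free RNA subtraction were alternatives.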

Additional observations from a re-analysis of the deposited data

How the results depend on the processing

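The counts of calls against pericytes stayed within 1.5 times under each of 13 alternatives, from 1007 to 1475 higher and from 729 to 1038 lower. The genes behind these counts changed more. Of the 1259 higher and 950 lower calls, 816 and 739 were also called in the limited fit and 935 and 638 with free RNA subtracted. With other scaling 1253 and 949 were called again. Against all other cells the higher calls ran from 1049 to 1522 under 11 alternatives, and the lower calls from 1775 to 2592 under 10 of them. With free RNA subtracted the lower calls were 701 in place of 1998. The free RNA share, estimated from rod genes, was 43.7% in the pericytes of WT2 and 7.58% in those of WT1, so that alternative changes the libraries unequally. Without the library as replicate block, 1019 were higher and 750 lower against pericytes, and 1255 and 1775 against all other cells, and among the named genes it changed the call of Ndufa4l2 only. Leaving out a library leaves no residual degrees of freedom for these fits, so those fits gave no test, and each of the 63 named genes had the same sign in each library alone. The share of smooth muscle cells was 2.85% and 3.66% with at least 10 UMIs of Myh11 and Cnn1, 4.33% and 4.89% with at least 3, and 2.99% and 3.57% in the set limited to Rgs5 and Notch3 cells. In that limited fit Hhip (-5.28, from 0 UMIs in smooth muscle cells) and Cox8b (-0.54) changed sign without a call and 6 other named genes lost their call. Free RNA subtraction ended 9 named calls, pericytes defined by Rgs5 ended 3, at most 2 UMIs of Lum and Dcn ended 2, and Scrublet removal, the fit without the block and the fit of 2 classes ended 1 each. The causes of these changes were not tested. The shares of smooth muscle cells with a UMI moved with depth: at full depth they were 68.6% and 58.9% for Des, 30.5% and 32.7% for Actg2, 17.8% and 16.7% for Kcnj8 and 85.3% for Rgs5 in WT2. Only 2 libraries limit every test.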
